A study of Mus musculus with 24 samples.

Results

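The genes described here are 45 mouse genes that act in DNA replication or S phase, read as a measure of how far cells left the growth arrest that crowding imposes (contact inhibition). They were taken by name from a list, by their Ensembl identifiers, if their mean count over all libraries was at least 5. All 45 passed, the lowest being E2f2 with a mean count of 24, and they are 45 of the 14361 genes tested and of the 39017 genes in the count tables. Beyond that minimum no measured value decided membership.

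The libraries were made from polyA RNA of NIH 3T3, a mouse fibroblast line that grows without limit but stops dividing when it becomes confluent. All lines were stably transduced with a pBabeNeo retrovirus and the study expressed each protein from it with a Flag tag. EV carried the empty vector. TAZ4SA and YAP5SA are TAZ and YAP with the serines that the Hippo pathway kinases LATS phosphorylate changed to alanine, so that both stay active in crowded cells. TAZ-CAMTA1 joins the N terminus of TAZ to the C terminus of the transcription factor CAMTA1, YAP-TFE3 joins the N terminus of YAP to the C terminus of the transcription factor TFE3, and CAMTA1 and TFE3 are the other full-length partners. Cells of the EV, TFE3, YAP5SA, YAP-TFE3, TAZ4SA and TAZ-CAMTA1 lines were collected after 48 h of confluence, those of CAMTA1 at sub-confluence, and EVsub is the empty vector line labelled sub-confluent. The labels name CAMTA1 alone as the exception, whereas the study's methods speak of lines that contain CAMTA1, so that a sub-confluent harvest of TAZ-CAMTA1 cannot be told apart from a confluent one by the text, and the labels were followed. Each of the 8 groups had 3 libraries, 24 in all. By the study's methods the 3 replicates of a group came from separate transductions, each followed by stable selection. Each line is a selected population of cells, and the vector drives the protein at a level of its own and not at the level of the endogenous gene.

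Before S phase, ORC, Cdc6 and Cdt1 load rings of Mcm2 to Mcm7 onto origins of replication, a step called licensing that geminin (Gmnn) limits by binding Cdt1. Mcm10, Cdc45 and the GINS complex then turn each ring into a moving helicase, and polymerases, the sliding clamp PCNA and its loader RFC copy the DNA behind it while Rrm1, Rrm2, Tyms and Tk1 supply the nucleotides. Many of these genes are known targets of E2F transcription factors, which RB family proteins hold in check in resting fibroblasts, and cyclin E, geminin and the repressors E2f7 and E2f8 belong to the same circuit.

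Because E2F sites are the best known feature that promoters of this pathway share, 4 forms of the E2F motif (TTTCCCGC, TTTGGCGC, TTTCGCGC and TTTGCCGC) were searched on both strands in RefSeq promoter windows of GRCm38.p6, from 250 bases before to 50 after each listed start of a gene. A gene with several starts, such as Dnmt1 or Lig1, had several windows and counted as holding a motif if any of them did. At least 1 window was at hand for 36 of the 45 genes. Of these, 16 (44.4%) held at least 1 motif, against 704 of 27025 genes (2.6%) with a window. The stretches below lie upstream of the start, run 5′ to 3′ on the gene's strand, and carry the motif in capitals. Mcm6 and Mcm5 are shown because they are the genes with more than 1 match upstream of the start. Mcm6 holds 3, of which the first pair overlap, and Mcm5 holds 2, which overlap, and there the capitals cover both. Pola1 and E2f7 are shown because their mRNAs went in opposite directions in YAP5SA as described further on, a choice made after their values were seen.
Mcm6, chr1:128359706-128359855, minus strand: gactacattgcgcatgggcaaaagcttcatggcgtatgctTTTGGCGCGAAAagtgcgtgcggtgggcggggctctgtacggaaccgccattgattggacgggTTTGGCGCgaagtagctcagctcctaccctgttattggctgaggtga
Mcm5, chr8:75109316-75109508, plus strand: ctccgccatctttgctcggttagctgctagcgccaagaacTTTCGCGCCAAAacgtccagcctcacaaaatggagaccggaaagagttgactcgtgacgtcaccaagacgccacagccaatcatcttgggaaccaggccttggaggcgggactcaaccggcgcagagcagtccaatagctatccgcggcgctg
Pola1, chrX:93632156-93632333, minus strand: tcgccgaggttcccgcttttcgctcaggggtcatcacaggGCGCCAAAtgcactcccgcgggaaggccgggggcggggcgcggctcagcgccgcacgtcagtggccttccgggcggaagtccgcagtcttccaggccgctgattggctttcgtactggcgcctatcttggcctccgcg
E2f7, chr10:110745201-110745438, plus strand: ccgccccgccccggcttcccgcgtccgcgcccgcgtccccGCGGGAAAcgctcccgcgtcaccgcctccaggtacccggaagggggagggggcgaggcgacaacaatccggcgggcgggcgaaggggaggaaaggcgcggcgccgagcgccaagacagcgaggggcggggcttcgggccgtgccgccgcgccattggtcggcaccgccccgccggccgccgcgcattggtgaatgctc

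Levels are CPM, counts scaled to library size, after edgeR's TMM scaling, log2 fold changes come with ± 1 standard error from a fit by edgeR over all 24 libraries, with n = 3 per group, and DE means an adjusted p under 0.05. Library totals ran from 16471181 to 30132586 counts, and the 45 genes took 0.1077% to 0.4128% of them. By CPM scaled by library totals alone, of 10 fibroblast markers Col1a1, Col1a2, Col3a1, Vim and Fn1 were at 503 CPM or more in every library, while Postn and Thy1 went down to 42.9 and 33.4 CPM and Fbln1 had 6 to 222 counts. Their summed level moved with the groups, from 39100 to 43400 CPM in EV, 39600 to 46500 in TAZ-CAMTA1 and 44500 to 57900 in YAP-TFE3 to 25300 to 36700 in EVsub, 20600 to 29600 in CAMTA1, 23300 to 25700 in YAP5SA and 20300 to 21600 in TAZ4SA. Against EV, 4 of the 10 markers were DE lower and 2 higher in TAZ4SA and in YAP5SA (60%, beside 57.5% and 71.2% of all genes). In EVsub 4 were lower and 1 higher (50%, beside 22.1%). In TAZ-CAMTA1 and in YAP-TFE3 1 was lower and 3 were higher (40%, beside 21.5% and 15.3%), and in TFE3 none was DE. Epcam was at 0 in all libraries. The summed level, scaled the same way, of 11 markers of epithelial, endothelial and white blood cells was 4.30 to 5.75 CPM in EV, 127 to 249 CPM in YAP-TFE3 (mostly Lyz2, Cd68 and Csf1r), 75.5 to 115 CPM in YAP5SA, 26.0 to 72.3 CPM in TAZ4SA and 27.0 to 29.8 CPM in TAZ-CAMTA1, and the part of either marker list in the results was not tested. Amotl2, a known target of TAZ and YAP, was higher than in EV in TAZ4SA (log2 fold change 1.41 ± 0.16), TAZ-CAMTA1 (0.95 ± 0.16), YAP5SA (2.09 ± 0.16) and YAP-TFE3 (0.49 ± 0.16), all DE. In YAP-TFE3 that call was lost by library totals alone and without EV replicate 1, EV replicate 3 or YAP-TFE3 replicate 1. Amotl2 was also DE higher in EVsub, which expressed none of these proteins from the vector. Of 6 such targets read, 5 were higher in TAZ4SA, 5 in TAZ-CAMTA1, 6 in YAP5SA, 4 in YAP-TFE3 and 4 in EVsub. None was lower, and 57.5%, 21.5%, 71.2%, 15.3% and 22.1% of all genes were DE in that order. The Axl call in TAZ-CAMTA1 was lost by library totals alone and without any single EV library, among other alternatives. The Ajuba call in YAP-TFE3 was lost by library totals alone and without EV replicate 1, EV replicate 2 or YAP-TFE3 replicate 1. In EVsub the Ankrd1 call was lost without EVsub replicate 1 and that of Ccn1 in a fit of EVsub and EV alone. Ccn2 was not DE in TAZ-CAMTA1 or YAP-TFE3.

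Libraries of the same group differed in these genes. EVsub replicate 3 was the lowest of its group for 45 of 45 genes, and EV replicate 2 the highest of its group for 41. As the median over the 45 genes of log2(CPM + 0.1) minus the EV mean, EVsub replicate 3 was at 0.32, beside 1.14 and 1.66 in the other EVsub libraries, and EV replicate 2 was at 0.30, beside -0.19 and -0.11 in the other EV libraries. Among the empty vector libraries, the lowest sub-confluent and the highest confluent one therefore stood at nearly the same level. CAMTA1 replicate 1 was the highest of its group for 43 genes, CAMTA1 replicate 3 the lowest for 44, TAZ-CAMTA1 replicate 1 the lowest for 39, and TAZ4SA replicate 3 and YAP5SA replicate 3 the highest for 32 and 34. The same libraries stood apart in 21 genes of mitosis, of which 21 were lowest in EVsub replicate 3 and 21 highest in EV replicate 2. In bulk RNA, fewer cells in S phase and less mRNA per cell cannot be told apart.

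**Figure D1:**
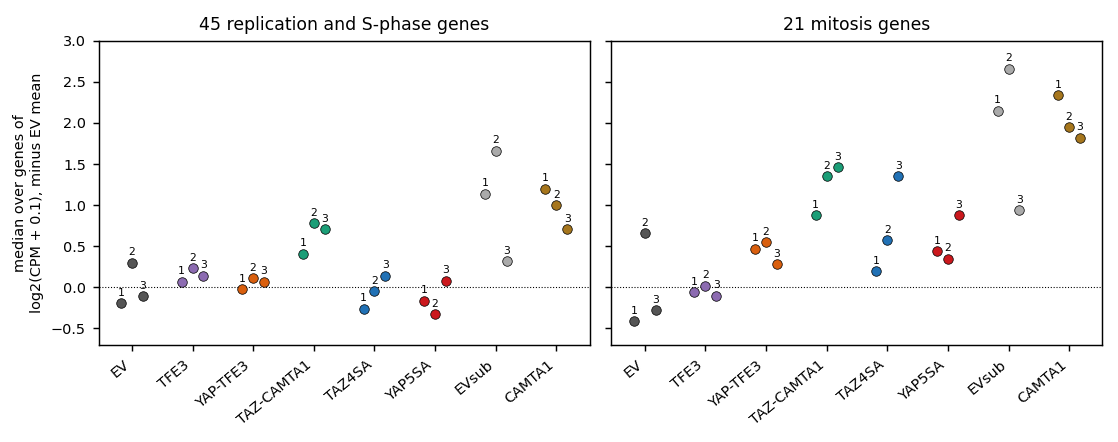
Median over the 45 replication and S-phase genes (left) and over 21 mitosis genes (right) of log2(CPM + 0.1) minus the EV mean, 1 point per library, labelled with its replicate number, in the 8 groups. EVsub replicate 3 (0.32 on the left) sits beside EV replicate 2 (0.30), the TAZ-CAMTA1 libraries lie between 0.41 and 0.78, and on the right the TAZ4SA and YAP5SA libraries lie above 0 although on the left they lie around it.

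Nearly the whole set differed with growth density. Of the 45 genes, 39 were DE between EVsub and EV, all higher in EVsub, where 22.1% of all genes tested were DE, 12.5% higher and 9.59% lower. The median log2 fold change of the 45 was 1.12, and 0.02 over all genes tested. All 6 helicase activation genes, all 4 genes of nucleotide supply, all 4 genes that copy chromatin or methylation, 10 of 11 licensing genes, 12 of 14 fork genes and 3 of 6 E2F and cyclin E genes were among the 39. The 6 that did not pass were Cdt1, Pola1, Fen1, E2f1, Ccne1 and Ccne2. In 21 of the 45 genes every EVsub library lay above every EV library, and how many of all genes did so was not counted. Without EVsub replicate 3, 42 genes were higher, and without EVsub replicate 2, 27 were. The call held under every alternative tried for 21 of the 39.

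A part of the set was higher in TAZ-CAMTA1 than in EV, both confluent by the labels. Between TAZ-CAMTA1 and EV 16 of the 45 genes were DE, all higher in TAZ-CAMTA1, where 21.5% of all genes were DE, 12.5% higher and 8.98% lower. The median log2 fold change of the 45 was 0.62. The 16 were 5 licensing genes (Orc1, Orc6, Cdc6, Gmnn and Mcm5), 4 fork genes (Pola2, Prim1, Pole and Exo1), 3 genes of nucleotide supply (Rrm1, Rrm2 and Tk1), E2f2 and E2f7, and Chaf1a and Dnmt1. The count depended on single libraries. It was 23 without EV replicate 2, and 7 without EV replicate 1, 9 without EV replicate 3 and 8 without TAZ-CAMTA1 replicate 2. Orc1, Gmnn, Pola2, Rrm1, Rrm2, Tk1 and E2f7 passed under every alternative tried. Cdc6, Mcm5, Prim1, Pole and Exo1 did not pass without EV replicate 1, EV replicate 3, TAZ-CAMTA1 replicate 2 or TAZ-CAMTA1 replicate 3, Orc6 and Chaf1a not without EV replicate 1, EV replicate 3 or TAZ-CAMTA1 replicate 2, Dnmt1 not without EV replicate 1 or TAZ-CAMTA1 replicate 2, and E2f2 not without EV replicate 1. By library totals alone 13 genes were DE (21.5% of all genes), so that some of these calls were lost there too.

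In the mutants TAZ4SA and YAP5SA genes of the set went in both directions. These comparisons share the EV libraries with those above. Between TAZ4SA and EV 5 genes were higher and 6 lower (57.5% of all genes DE, 31.1% higher and 26.4% lower), with a median log2 fold change of -0.06 (0.05 over all genes). Between YAP5SA and EV 8 were higher and 12 lower (71.2% of all genes DE, 36.3% higher and 34.9% lower), with a median of -0.19 (0.01 over all genes). The share of the 45 genes that was DE, 24.4% in TAZ4SA and 44.4% in YAP5SA, was thus below the share of all genes. Scaled by library totals alone, which shifted the median of all genes by -0.17 in TAZ4SA and -0.37 in YAP5SA, the counts were 3 higher and 8 lower in TAZ4SA and 4 higher and 20 lower in YAP5SA. The balance in TAZ4SA turned with single libraries. It was 2 higher and 8 lower without EV replicate 1, 6 and 3 without EV replicate 2, 3 and 6 without EV replicate 3, 5 and 2 without TAZ4SA replicate 1 and 3 and 10 without TAZ4SA replicate 3. In YAP5SA 9 were higher and 7 lower without EV replicate 2, where the median was 0.03.

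In YAP-TFE3 and TFE3 almost no gene passed the test against EV. No gene was DE between YAP-TFE3 and EV by edgeR or by DESeq2 (15.3% of all genes were DE by edgeR, 10.6% higher and 4.74% lower), 3 had an unadjusted p under 0.05, and the log2 fold changes ran from -0.51 to 0.85 with a median of 0.01. Without EV replicate 2, 2 genes were DE. Between TFE3 and EV 1 gene, Chaf1b, was DE (3.38% of all genes, 2.36% higher and 1.02% lower), and none was when EV replicate 1, EV replicate 3, TFE3 replicate 2 or TFE3 replicate 3 was left out, against 2 without EV replicate 2. Between CAMTA1 and EVsub, both sub-confluent, no gene was DE by edgeR or DESeq2 and none had an unadjusted p under 0.05 (2.18% of all genes were DE, 1.29% higher and 0.891% lower). The median was -0.11, and the log2 fold changes ran from -0.42 to 0.60 with a median standard error of 0.25. The median changed sign with single libraries, to 0.24 without EVsub replicate 2 and 0.05 without CAMTA1 replicate 3, and was -0.40 without EVsub replicate 3 and -0.27 without CAMTA1 replicate 1. Tk1, for example, was at 86.2, 63.6 and 52.9 CPM in CAMTA1 and 57.8, 119 and 27.6 in EVsub, and Cdc6 at 29.3, 20.5 and 14.8 and 22.3, 27.7 and 9.43.

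**Figure D2:**
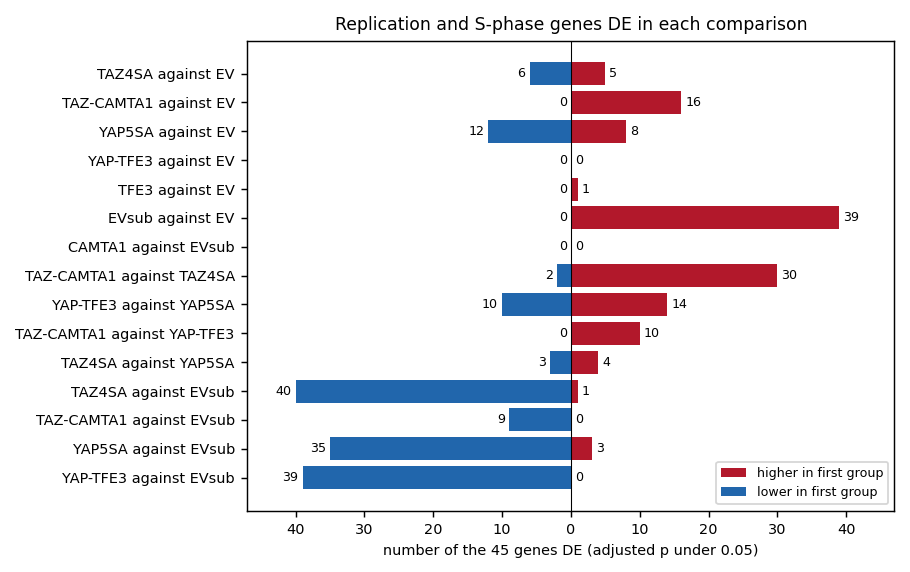
Number of the 45 replication and S-phase genes that were DE (adjusted p under 0.05, edgeR) in each of 15 comparisons, higher in the first-named group to the right and lower to the left. EVsub against EV reached 39 higher, TAZ-CAMTA1 against EV 16 higher, and TAZ4SA and YAP5SA had genes on both sides.

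Set side by side, the fusion with TAZ stood above the TAZ mutant. Of the 45 genes, 30 were higher and 2 (Cdt1 and Rfc4) lower in TAZ-CAMTA1 than in TAZ4SA (54.7% of all genes DE, 26.6% higher and 28.1% lower), with a median log2 fold change of 0.69. Cdc6 had the largest rise (log2 fold change 2.07 ± 0.40) and Cdt1 the largest fall (-1.07 ± 0.26), both held under every alternative tried. The number DE fell from 32 to 18 without TAZ4SA replicate 1, 21 without TAZ4SA replicate 2, 20 without TAZ-CAMTA1 replicate 2 and 21 without TAZ-CAMTA1 replicate 3. YAP-TFE3 differed from YAP5SA with 14 genes higher and 10 lower (70.9% of all genes DE, 36.4% higher and 34.5% lower), and with 25 higher and 7 lower when scaled by library totals alone, which shifted the median of all genes by 0.36. Apart from E2f2, Pola1 had the largest rise (log2 fold change 2.69 ± 0.41) and Cdt1 the largest fall (-1.51 ± 0.26). Between the fusions, 10 genes were higher in TAZ-CAMTA1 than in YAP-TFE3 (11.6% of all genes DE, 5.32% higher and 6.32% lower), the largest being E2f7 (log2 fold change 1.92 ± 0.37). That count was 2 or 3 when TAZ-CAMTA1 replicate 2 or 3 or any YAP-TFE3 library was left out. Between the mutants, 4 genes were higher and 3 lower in TAZ4SA than in YAP5SA (42.4% of all genes DE, 22.8% higher and 19.6% lower), and 6 higher and 3 lower by library totals alone. Rrm1 was the furthest below (log2 fold change -1.05 ± 0.22) and, apart from E2f2, Pola1 the furthest above (1.41 ± 0.41). Without TAZ4SA replicate 3, 4 were DE, 1 of them higher, which was E2f2, so that the Pola1 call was lost. Pola1 was at 7.39, 8.02 and 30.04 CPM in TAZ4SA and 6.88, 6.04 and 4.31 in YAP5SA. Without YAP5SA replicate 2, 2 were higher and 5 lower.

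Against the sub-confluent vector cells, 40 genes were lower and 1, Cdt1, higher in TAZ4SA (53.2% of all genes DE, 27.7% higher and 25.5% lower), 35 lower and 3 (Cdt1, Rfc4 and Rrm1) higher in YAP5SA (68.8%, 33.9% and 34.9%), 39 lower in YAP-TFE3 (31.4%, 16.1% and 15.3%) and 9 lower in TAZ-CAMTA1 (21.4%, 11.6% and 9.81%). Tk1 fell the most in TAZ4SA (-2.84 ± 0.37) and, apart from E2f2, in YAP5SA (-3.28 ± 0.38), and E2f8 in YAP-TFE3 (-1.83 ± 0.35) and TAZ-CAMTA1 (-1.19 ± 0.34). By library totals alone, no gene was higher in TAZ4SA or YAP5SA, and 42 and 41 were lower. The 3 higher in YAP5SA became 1 or 0 without EVsub replicate 1, EVsub replicate 3 or any YAP5SA library. The protein and the density differ together in these comparisons and cannot be told apart. The 9 of TAZ-CAMTA1 became 29 without EVsub replicate 3, 4 without EVsub replicate 1 and 0 by edgeR without EVsub replicate 2, and 1, 3 and 5 without TAZ-CAMTA1 replicates 1, 2 and 3. By group means, TAZ-CAMTA1 lay between EV and EVsub for 42 of the 45 genes. So did CAMTA1 for 33, TFE3 for 32, YAP-TFE3 for 23, TAZ4SA for 16 and YAP5SA for 11. How many of all genes did so was not counted. EVsub had the highest mean of the 8 groups for 28 genes and CAMTA1 for 11, while YAP5SA had the lowest mean for 22 and YAP-TFE3 for 13.

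**Figure D3:**
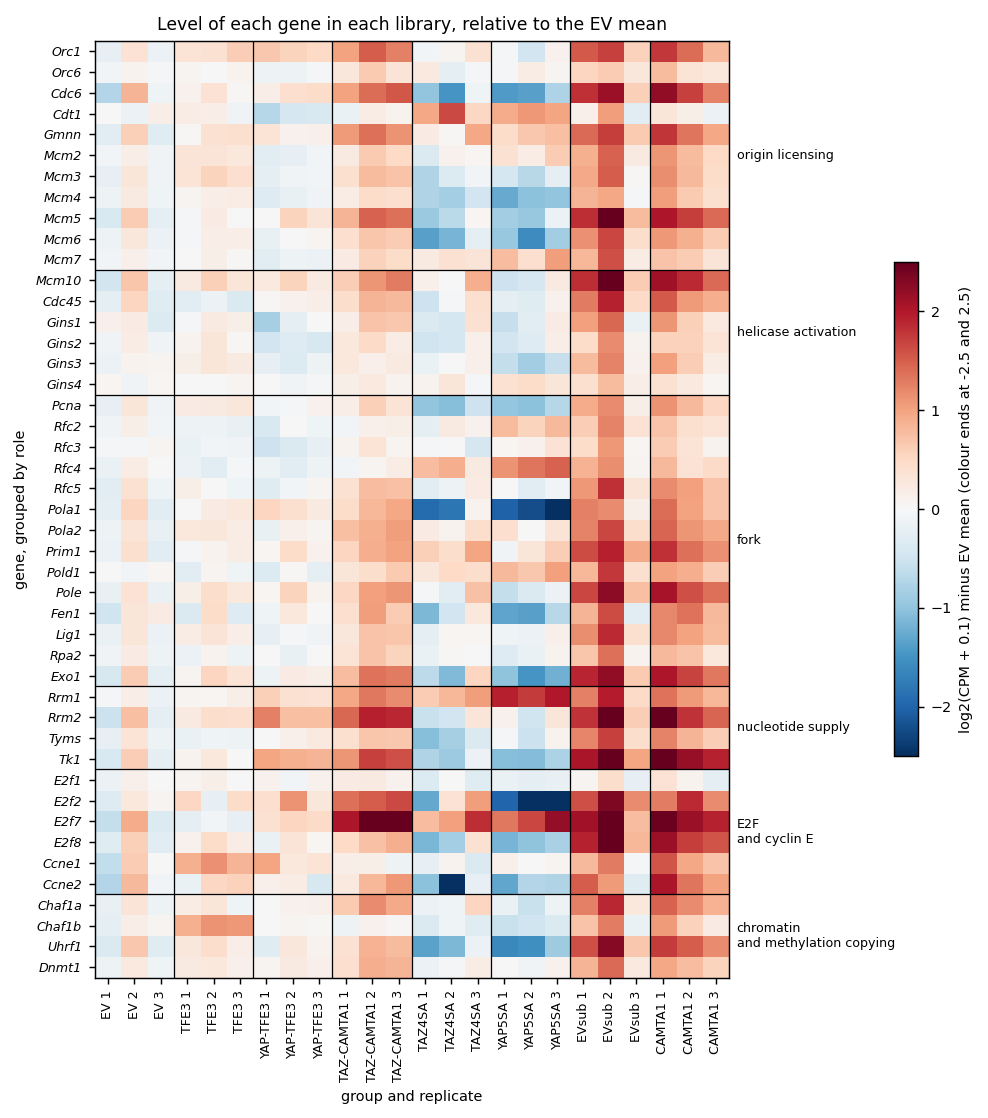
Level of each of the 45 genes in each of the 24 libraries, as log2(CPM + 0.1) minus the EV mean, with genes grouped by role and libraries by group, red above and blue below the EV mean. The EVsub and CAMTA1 columns are red for nearly all genes, paler in EVsub replicate 3, while the TAZ4SA and YAP5SA columns hold red rows (Cdt1, Rfc4, Rrm1 and E2f7) beside blue rows (Mcm4, Mcm6, Pcna, Pola1 and Uhrf1).

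Licensing began with the proteins that find and prepare origins. Orc1, the origin recognition subunit whose level follows the cell cycle, was at 5.40, 8.02 and 5.66 CPM in the EV libraries, 18.4, 20.6 and 9.38 in EVsub, 12.7, 18.1 and 15.2 in TAZ-CAMTA1, 6.003, 6.60 and 8.13 in TAZ4SA and 6.11, 4.46 and 6.78 in YAP5SA. Every EVsub and TAZ-CAMTA1 library lay above every EV library, with log2 fold changes of 1.34 ± 0.26, adjusted p = 0.000794, and 1.27 ± 0.26, adjusted p = 0.00109, while TAZ4SA and YAP5SA overlapped EV. In YAP-TFE3 Orc1 was at 10.1, 9.31 and 8.92 CPM, also above every EV library but not DE. Cdc6, which loads the Mcm rings with Cdt1, was at 3.67, 11.3 and 5.75 CPM in EV, 22.3, 27.7 and 9.43 in EVsub, 12.5, 16.6 and 18.4 in TAZ-CAMTA1, 3.08, 2.17 and 5.76 in TAZ4SA and 2.26, 2.35 and 3.61 in YAP5SA. TAZ-CAMTA1 lay above EV in every library (log2 fold change 1.20 ± 0.38, adjusted p = 0.0241) and YAP5SA below it (log2 fold change -1.34 ± 0.42, adjusted p = 0.00705), and without EV replicate 2 Cdc6 did not pass in YAP5SA. The difference between TAZ4SA and EV did not pass (adjusted p = 0.0723).

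Cdt1, the other loading factor, broke this pattern. It was at 46.3, 42.3 and 52.7 CPM in EV, 41.9, 53.7 and 49.5 in TAZ-CAMTA1 and 51.1, 97.2 and 38.5 in EVsub, which overlapped one another, and at 92.2, 147 and 66.8 in TAZ4SA and 89.7, 99.8 and 93.2 in YAP5SA, all above every EV library. The log2 fold changes against EV were 1.11 ± 0.26, adjusted p = 0.000835, in TAZ4SA and 1.00 ± 0.26, adjusted p = 0.00141, in YAP5SA, and it was the licensing gene with the largest rise in both. In YAP-TFE3 it was at 28.5, 34.9 and 35.8 CPM, below every EV library, although the difference from EV was not DE (adjusted p = 0.206). Gmnn, the inhibitor of Cdt1, was at 4.39, 8.21 and 4.34 CPM in EV, 14.6, 18.1 and 8.54 in EVsub, 11.4, 14.2 and 11.9 in TAZ-CAMTA1, 6.20, 5.47 and 10.6 in TAZ4SA and 7.44, 8.68 and 9.12 in YAP5SA. Its rise passed in EVsub (log2 fold change 1.29 ± 0.28) and TAZ-CAMTA1 (log2 fold change 1.15 ± 0.28) and not in YAP5SA (log2 fold change 0.58 ± 0.29, adjusted p = 0.0771).

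For the 6 ring subunits, which work as one complex, the calls in the mutants differed from gene to gene, and differences between the subunits were not tested. Mcm6 was at 77.97, 103 and 76.7 CPM in EV, 188, 269.5 and 116 in EVsub, 114, 138 and 132 in TAZ-CAMTA1, 33.04, 38.1 and 72.2 in TAZ4SA and 44, 28.7 and 46.4 in YAP5SA. Every TAZ4SA and YAP5SA library lay below every EV library, with log2 fold changes of -0.84 ± 0.26, adjusted p = 0.0085, and -1.12 ± 0.26, adjusted p = 0.000677, and the TAZ4SA call was lost without TAZ4SA replicate 1. Mcm4 fell as well, with log2 fold changes of -0.69 ± 0.19 and -1.09 ± 0.19, whereas Mcm7 rose in YAP5SA (log2 fold change 0.76 ± 0.22), though not by library totals alone. Mcm2 was at 83.6, 98.7 and 82.1 CPM in EV and 114, 100 and 136 in YAP5SA, above every EV library but not DE (adjusted p = 0.0926). In EVsub Mcm2 was at 163, 245 and 103 CPM and in TAZ-CAMTA1 at 103, 138 and 123 CPM, and only the first passed against EV (log2 fold change 0.95 ± 0.21, against 0.47 ± 0.21 in TAZ-CAMTA1). The EVsub call did not hold under every alternative tried.

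Mcm5, with the overlapping motifs shown above, was at 23.4, 46.8 and 25.4 CPM in EV, 109.7, 185 and 52.2 in EVsub, 54.9, 84.5 and 79.3 in TAZ-CAMTA1, 15.9, 18.9 and 31.5 in TAZ4SA and 16.6, 15.7 and 27.2 in YAP5SA. It was the ring subunit with the largest rise in EVsub (log2 fold change 1.86 ± 0.35, adjusted p = 0.000655) and the one DE in TAZ-CAMTA1 (log2 fold change 1.20 ± 0.35, adjusted p = 0.0155), where Mcm2, Mcm3, Mcm4, Mcm6 and Mcm7 had log2 fold changes of 0.35 to 0.63 and did not pass. Per kilobase of exon, the mean EV level of Mcm5 was 7.98 CPM per kb, the lowest of the 6 subunits, beside 24.9 CPM per kb for Mcm4, the highest. In YAP5SA, Mcm4 was at 11.7, Mcm6 at 8.51 and Mcm7 at 31.1 CPM per kb, where in EV they had been at 24.9, 18.4 and 18.3.

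The genes that start the helicase differed mainly with density. Cdc45 was at 11.9, 20.1 and 11.2 CPM in EV, 34.3, 52.9 and 19.4 in EVsub, 18.9, 25.1 and 24.4 in TAZ-CAMTA1, 9.62, 13.4 and 18.4 in TAZ4SA and 11.8, 11.2 and 14.9 in YAP5SA. Mcm10 was at 6.08, 13.6 and 7.17 CPM in EV, 30.5, 50.9 and 13.1 in EVsub, 12.9, 18.3 and 20.7 in TAZ-CAMTA1, 9.18, 8.32 and 15.8 in TAZ4SA and 5.85, 6.23 and 9.88 in YAP5SA. For both, EVsub passed against EV (log2 fold changes 1.31 ± 0.28 and 1.82 ± 0.37) with 1 library overlapping, while TAZ-CAMTA1, TAZ4SA and YAP5SA did not pass. Of the 4 GINS subunits, Gins3 fell in YAP5SA (log2 fold change -0.69 ± 0.22, adjusted p = 0.00951) and Gins4 rose (log2 fold change 0.39 ± 0.13, adjusted p = 0.0102), the latter lost by library totals alone.

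At the fork, the largest difference between a mutant and EV was in Pola1, the catalytic subunit of the polymerase that makes primers with primase. Pola1 was at 23.7, 41.1 and 23.2 CPM in EV, 38.7, 50.6 and 55.01 in TAZ-CAMTA1, 41.2, 37.5 and 33.1 in YAP-TFE3, 7.39, 8.02 and 30.04 in TAZ4SA and 6.88, 6.04 and 4.31 in YAP5SA. The YAP5SA libraries all lay under every EV library (log2 fold change -2.34 ± 0.41, adjusted p = 2.77e-05). TAZ4SA replicates 1 and 2 were nearly as low as YAP5SA while replicate 3 lay inside the EV range, and its log2 fold change (-0.93 ± 0.38, adjusted p = 0.0413) did not pass without TAZ4SA replicate 1, TAZ4SA replicate 2 or EV replicate 2. For the partner subunits no fall passed. Pola2 had log2 fold changes of 0.24 ± 0.21 in TAZ4SA and 0.24 ± 0.21 in YAP5SA, neither DE, and the primase Prim1 rose in TAZ4SA (log2 fold change 0.67 ± 0.24). The Prim1 call was lost by library totals alone, in a fit of TAZ4SA and EV alone and without EV replicate 1, EV replicate 3 or TAZ4SA replicate 3. In EVsub, Pola1 was at 68.1, 64.6 and 31.2 CPM and did not pass (adjusted p = 0.0858), where Pola2 and Prim1 did (log2 fold changes 1.19 ± 0.21 and 1.55 ± 0.24).

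Pcna, the sliding clamp, was at 68.1, 96.6 and 74.2 CPM in EV, 150.1, 178 and 87.6 in EVsub, 88.5, 119 and 99.2 in TAZ-CAMTA1, 39.9, 37.6 and 54.8 in TAZ4SA and 40.3, 38.6 and 47.9 in YAP5SA. The mutants lay below every EV library, with log2 fold changes of -0.85 ± 0.20, adjusted p = 0.00125, and -0.91 ± 0.21, adjusted p = 0.000424, and both calls held under every alternative tried. Among subunits of its loader, Rfc4 rose in YAP5SA (log2 fold change 1.32 ± 0.21, adjusted p = 8.70e-06). Rfc2 rose there as well (0.72 ± 0.17, adjusted p = 0.000771), while Rfc3 (0.18 ± 0.19) and Rfc5 (-0.13 ± 0.25) were not DE. Rfc1, read in the list of further replication genes described below, was DE in YAP5SA under every alternative tried. Its direction is not given here, and the loader as a whole was not tested. By library totals alone Rfc2 did not pass. Rfc4 also rose in TAZ4SA (log2 fold change 0.65 ± 0.21), which was lost by library totals alone, in a fit of TAZ4SA and EV alone and without EV replicate 1 or TAZ4SA replicate 2. Its exons overlap those of Eif4a2 on the other strand over 194 bases, and although the library kit keeps strand, whether counting used it is not given in the sources used here.

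Among the other fork genes, Exo1, a nuclease that trims DNA at replication and repair, was at 5.57, 11.6 and 6.19 CPM in EV, 27.9, 34.6 and 11.6 in EVsub, 12.6, 18.96 and 18.2 in TAZ-CAMTA1, 4.66, 3.37 and 10.8 in TAZ4SA and 3.59, 2.60 and 3.17 in YAP5SA. It rose in TAZ-CAMTA1 (log2 fold change 1.10 ± 0.36, adjusted p = 0.0335) and fell in YAP5SA (-1.31 ± 0.40, adjusted p = 0.00602), the first call lost without EV replicate 1 or 3 or TAZ-CAMTA1 replicate 2 or 3 and the second without EV replicate 2. Rpa2, which coats single-stranded DNA, was at 12.6, 15.5 and 12.2 CPM in EV, 21.6, 35.04 and 14.2 in EVsub, 16.9, 22.1 and 19.7 in TAZ-CAMTA1 and 10.6 to 14.1 over the TAZ4SA and YAP5SA libraries, and was DE in EVsub (log2 fold change 0.82 ± 0.22), though not without EV replicate 3 or EVsub replicate 2. Pold1, the catalytic subunit of polymerase delta, rose in YAP5SA (log2 fold change 0.84 ± 0.22, lost by library totals alone). Fen1, the flap nuclease, had a mean count of 40.04 and exons that overlap those of neighbours on the other strand over 2039 bases, so its fall in YAP5SA (log2 fold change -1.28 ± 0.49) is uncertain. That call did not pass without EV replicate 2 or 3 or YAP5SA replicate 1 or 2.

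Of the genes that supply nucleotides, both subunits of ribonucleotide reductase rose in EVsub and TAZ-CAMTA1, and Rrm1 passed in TAZ4SA and YAP5SA as well. Rrm1, the large subunit, was at 100.1, 115 and 92.1 CPM in EV, 244, 396 and 142 in EVsub, 198, 255 and 233 in TAZ-CAMTA1, 157, 182 and 212 in TAZ4SA and 391, 345 and 408 in YAP5SA. These 4 groups lay above every EV library, with log2 fold changes of 1.35 ± 0.23, 1.16 ± 0.22, 0.84 ± 0.22 and 1.90 ± 0.23, each of them DE under every alternative tried. Rrm1 also lay above every EV library in YAP-TFE3 (155, 134 and 131 CPM), without being DE there, and in CAMTA1 (261, 214 and 182 CPM), which was not tested against EV. YAP5SA was also above EVsub (log2 fold change 0.55 ± 0.22, adjusted p = 0.0328), with EVsub replicate 2 inside its range, although not by library totals alone or without EVsub replicate 1, EVsub replicate 3, YAP5SA replicate 1 or YAP5SA replicate 3. Its rise over EV in YAP5SA was the largest of the 45 genes there.

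Rrm2, the small subunit whose level is tied to S phase, was at 17.6, 43.1 and 21.6 CPM in EV, 89.5, 147 and 39.01 in EVsub, 68.7, 98.3 and 94.4 in TAZ-CAMTA1, 17.2, 18.2 and 31.2 in TAZ4SA, 27.5, 18.01 and 31.4 in YAP5SA and 60.9, 43 and 42.8 in YAP-TFE3. TAZ-CAMTA1 lay above EV in every library (log2 fold change 1.67 ± 0.38, adjusted p = 0.00283), while TAZ4SA and YAP5SA overlapped EV (-0.29 ± 0.38 and -0.10 ± 0.38, not DE). Per kilobase of exon, mean Rrm1 and Rrm2 were at 9.30 and 9.89 CPM per kb in EV, 20.8 and 31.4 in TAZ-CAMTA1, and 34.6 and 9.24 in YAP5SA. These levels divide by merged exon lengths of 11012 bases for Rrm1 and 2771 for Rrm2, and other transcript lengths would shift the level of one gene against the other, which was not tested.

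Tk1, thymidine kinase, showed the largest rise from EV to EVsub, with 10.7, 21.4 and 11.7 CPM in EV and 57.8, 119 and 27.6 in EVsub (log2 fold change 2.23 ± 0.35, adjusted p = 0.000138). It was at 29.9, 45.7 and 42.6 CPM in TAZ-CAMTA1, 27.7, 25.9 and 25.2 in YAP-TFE3, 8.24, 7.34 and 12.6 in TAZ4SA and 6.62, 6.53 and 7.98 in YAP5SA. TAZ-CAMTA1 and YAP-TFE3 lay above EV in every library, with only TAZ-CAMTA1 passing (log2 fold change 1.43 ± 0.35, adjusted p = 0.00476, and 0.85 ± 0.35, adjusted p = 0.109, in YAP-TFE3). YAP5SA lay below EV in every library (log2 fold change -1.05 ± 0.37, adjusted p = 0.015), a call lost without EV replicate 2. Tyms, thymidylate synthase, was at 20.2, 29.8 and 21.4 CPM in EV, 54.8, 76.6 and 31.8 in EVsub, 31.1, 37.9 and 37.2 in TAZ-CAMTA1, 11.2, 13.1 and 18.2 in TAZ4SA and 22.7, 16.1 and 24.8 in YAP5SA. It fell in TAZ4SA (log2 fold change -0.74 ± 0.25, adjusted p = 0.0138) and not in YAP5SA (-0.16 ± 0.24), and the TAZ4SA call was lost without EV replicate 2 or TAZ4SA replicate 1. The direct difference between TAZ4SA and YAP5SA did not pass (adjusted p = 0.0671).

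**Figure D4:**
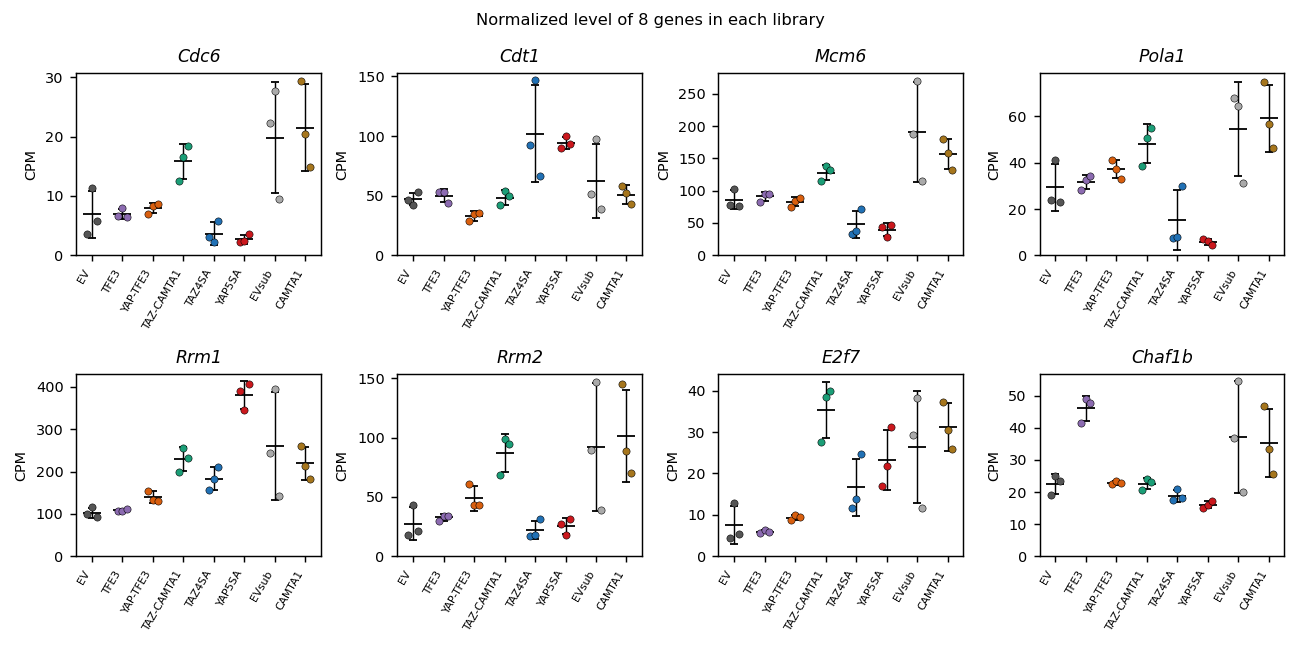
CPM of 8 of the genes in every library, with the mean as a short horizontal line and the standard deviation of 3 libraries as the error, for the 8 groups, each axis starting at 0. Cdt1 and Rrm1 are higher in every TAZ4SA and YAP5SA library than in every EV library, Mcm6 and Pola1 have their lowest means in YAP5SA, and Chaf1b stands higher in TFE3 than in the other confluent groups.

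Of the E2F genes, E2f1, the best known activator, was at 44.5, 53.4 and 49.3 CPM in EV and ranged from 38.5 to 66.1 CPM in the other 21 libraries, and it was not DE against EV in any group by edgeR, though it was lower in TAZ4SA and YAP5SA by library totals alone. E2f2, another activator, was low everywhere, at 0.380, 0.621 and 0.531 CPM in EV, 1.73, 2.96 and 1.27 in EVsub, 1.46, 1.63 and 1.80 in TAZ-CAMTA1 and 0.149, 0.675 and 1.14 in TAZ4SA. The YAP5SA libraries held 1, 0 and 0 counts of E2f2 and the EV libraries 34 counts in all, a ratio of 28.1 after scaling for depth, with a 95% interval of 4.72 to 1144 for counting error only. It was DE in TAZ-CAMTA1 (log2 fold change 1.67 ± 0.46, adjusted p = 0.0107), lost without EV replicate 1.

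The repressors E2f7 and E2f8 were DE in opposite directions in YAP5SA, and the difference between the genes was not tested. E2f7 was at 4.43, 12.8 and 5.31 CPM in EV, 29.2, 38.3 and 11.6 in EVsub, 27.6, 38.5 and 39.8 in TAZ-CAMTA1, 11.6, 13.8 and 24.6 in TAZ4SA and 16.99, 21.7 and 31.2 in YAP5SA. TAZ-CAMTA1 and YAP5SA lay above EV in every library, with log2 fold changes of 2.23 ± 0.38, adjusted p = 0.000175, and 1.63 ± 0.38, adjusted p = 0.000608, and the rise in TAZ-CAMTA1 was the largest of the 45 genes there. In TAZ4SA it overlapped EV replicate 2 (log2 fold change 1.16 ± 0.38, adjusted p = 0.0124). That call was lost in a fit of TAZ4SA and EV alone and without EV replicate 1, EV replicate 3 or TAZ4SA replicate 3. E2f8 was at 4.52, 8.499 and 4.60 CPM in EV, 21.4, 32.2 and 10.02 in EVsub, 7.93, 9.41 and 10.6 in TAZ-CAMTA1, 2.48, 3.07 and 7.39 in TAZ4SA and 2.46, 2.75 and 3.17 in YAP5SA. It fell in YAP5SA (log2 fold change -1.07 ± 0.39, adjusted p = 0.0184), lost without EV replicate 2 or YAP5SA replicate 1, and was not DE in TAZ4SA (-0.41 ± 0.37) or TAZ-CAMTA1 (0.67 ± 0.36). Both genes rose in EVsub (1.82 ± 0.38 for E2f7 and 1.86 ± 0.35 for E2f8). TAZ-CAMTA1 stayed below EVsub for E2f8 (log2 fold change -1.19 ± 0.34, adjusted p = 0.0158, lost without EVsub replicate 2 or TAZ-CAMTA1 replicate 1) and not for E2f7 (0.42 ± 0.36, adjusted p = 0.429).

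The cyclin E genes, whose proteins drive entry into S phase with Cdk2, did not pass between densities. Ccne1 was at 7.81, 18.9 and 11.9 CPM in EV, 21.1, 29.99 and 11.7 in EVsub and 22.5, 26.9 and 21.97 in TFE3, where every library lay above EV without passing (log2 fold change 0.89 ± 0.30, adjusted p = 0.116). Ccne2 was at 2.997, 8.88 and 4.82 CPM in EV, 14.6, 10.7 and 4.06 in EVsub, 2.43, 0.60 and 4.35 in TAZ4SA and 2.002, 2.99 and 2.98 in YAP5SA. Between EVsub and EV the log2 fold changes were 0.71 ± 0.30, adjusted p = 0.0922, and 0.82 ± 0.45, adjusted p = 0.212, with the libraries overlapping in both genes. TAZ-CAMTA1 was above TAZ4SA for Ccne2 (log2 fold change 1.73 ± 0.49, adjusted p = 0.00506), and the exons of Ccne2 overlap those of Ints8 on the other strand over 609 bases.

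Of the genes that rebuild chromatin and copy DNA methylation behind the fork, Uhrf1, which reads half-methylated DNA and recruits Dnmt1, was at 30.5, 63.2 and 31.8 CPM in EV, 121, 190.5 and 62.6 in EVsub, 51.5, 71.9 and 67.9 in TAZ-CAMTA1, 15.5, 18.1 and 35.6 in TAZ4SA and 12.9, 13.6 and 21.3 in YAP5SA. It fell in YAP5SA (log2 fold change -1.40 ± 0.35, adjusted p = 0.00128), where all libraries lay below EV, and in TAZ4SA (-0.85 ± 0.35, adjusted p = 0.0401), where replicate 3 overlapped EV and the call was lost without EV replicate 2 or TAZ4SA replicate 1 or 2. Dnmt1, the maintenance methyltransferase itself, was at 81.99, 107 and 83.1 CPM in EV, 163, 239 and 106 in EVsub, 120.0, 169.5 and 162 in TAZ-CAMTA1, 81.4, 87.8 and 103 in TAZ4SA and 90.4, 84.3 and 97.2 in YAP5SA. It rose in EVsub and TAZ-CAMTA1 (log2 fold changes 0.90 ± 0.20 and 0.73 ± 0.20) and was not DE in the mutants (0.00 ± 0.20 in TAZ4SA, with YAP5SA within rounding of the same value). Neither rise was DE under every alternative tried.

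Chaf1b, a subunit of the histone chaperone CAF-1, was the single gene DE in TFE3. It was at 19.1, 24.97 and 23.5 CPM in EV, 41.6, 48.9 and 47.7 in TFE3, 22.4, 23.5 and 22.8 in YAP-TFE3, 20.6, 24.1 and 22.99 in TAZ-CAMTA1 and 36.8, 54.7 and 19.9 in EVsub. The TFE3 libraries lay above every EV and YAP-TFE3 library, with a log2 fold change of 1.03 ± 0.23, adjusted p = 0.0144, against EV. The call was lost without EV replicate 1, EV replicate 3, TFE3 replicate 2 or TFE3 replicate 3. Its partner Chaf1a was not DE in TFE3 (log2 fold change 0.12 ± 0.28) and rose in EVsub (1.27 ± 0.28) and TAZ-CAMTA1 (0.93 ± 0.28), though neither rise was DE under every alternative tried. The exons of Chaf1a overlap those of Ubxn6 on the other strand over 4648 bases, so reads of the neighbour may be in its counts.

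**Figure D5:**
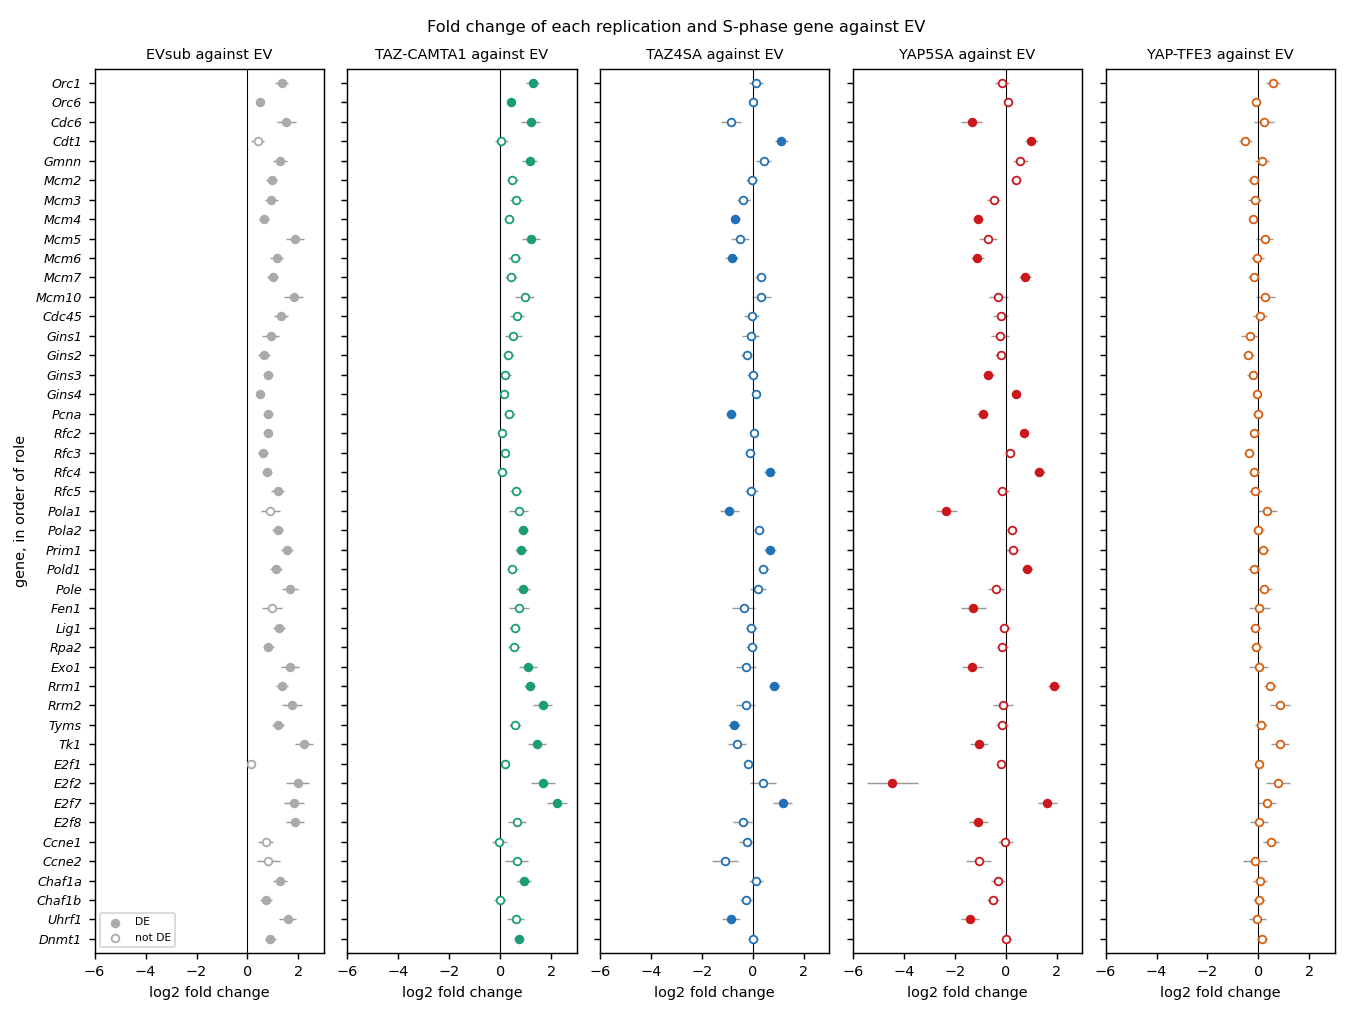
Log2 fold change of each of the 45 genes (edgeR, error bars 1 standard error) against EV, which all 5 panels share, with DE genes filled. Nearly all points of EVsub and most of TAZ-CAMTA1 lie right of 0, those of TAZ4SA and YAP5SA lie on both sides, and those of YAP-TFE3 lie near 0, while the E2f2 point of YAP5SA rests on 1 count and depends on the prior count.

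Other genes of the pathway were read from a list of 52 further replication genes. Of these, 32 were higher between EVsub and EV, with a median log2 fold change of 0.71, and 11 were higher and 1 (Orc5) lower in TAZ-CAMTA1, with a median of 0.42. These are 61.5% and 23.1% of the list, beside 22.1% and 21.5% of all genes, so that the share in TAZ-CAMTA1 was near that of all genes. The 32 became 20 without EVsub replicate 2 and 21 without EV replicate 1 or 3, and the 12 of TAZ-CAMTA1 became 5 without EV replicate 1, 7 without EV replicate 3 or TAZ-CAMTA1 replicate 3, 8 without TAZ-CAMTA1 replicate 2 and 18 without EV replicate 2, with Orc5 not among them. In TAZ4SA 11 were higher and 13 lower (46.2%, below the 57.5% of all genes), and in YAP5SA 11 and 24 (67.3%, beside 71.2%), with medians of 0.05 and -0.40, or 5 and 17 in TAZ4SA and 6 and 32 in YAP5SA by library totals alone. In YAP-TFE3 none was DE by edgeR, 4 had an unadjusted p under 0.05, and DESeq2 called 1 lower. Recql4, a helicase needed to start replication, was higher in EVsub, TAZ-CAMTA1, TAZ4SA and YAP5SA (log2 fold changes 2.15 ± 0.36, 1.41 ± 0.36, 1.78 ± 0.36 and 1.26 ± 0.36). Pold4, the small subunit of polymerase delta, rose in TAZ4SA (1.76 ± 0.17) and YAP5SA (2.37 ± 0.17). Pclaf, a partner of Pcna, fell in both (-1.16 ± 0.46 and -1.96 ± 0.49) and rose in EVsub (1.98 ± 0.44). Its TAZ4SA call was lost in a fit of TAZ4SA and EV alone and without EV replicate 2, TAZ4SA replicate 1 or TAZ4SA replicate 2. Cdc7, the kinase that fires origins, fell in both mutants (-1.29 ± 0.32 and -1.81 ± 0.33).

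Upstream of these genes stand the regulators of RB and E2F, of which 23 on a list passed the count minimum. Ccnd1, cyclin D1, which starts the release of E2F, was at 38.3, 78.9 and 46.3 CPM in EV, 141, 155 and 76.1 in EVsub, 289, 426 and 412 in TAZ-CAMTA1, 40.5, 55.6 and 127 in TAZ4SA, 50.8, 29.2 and 40.4 in YAP5SA and 41.2, 50.97 and 65.4 in YAP-TFE3. The TAZ-CAMTA1 libraries lay above those of every other group, with a log2 fold change against EV of 2.79 ± 0.37, adjusted p = 9.29e-06, and EVsub was DE too (1.19 ± 0.35), though not without EV replicate 1, EV replicate 3, EVsub replicate 1 or EVsub replicate 2. Cdkn1a, the p21 inhibitor of cyclin-dependent kinases, was at 60.2, 44.2 and 48.01 CPM in EV, 81.2, 107 and 80.8 in EVsub, 105, 115 and 109.7 in TAZ-CAMTA1, 106, 87.3 and 90.95 in YAP-TFE3, 539.5, 813 and 307 in TAZ4SA and 1294, 1015 and 1039 in YAP5SA. The mutants stood far above the rest, with log2 fold changes against EV of 3.44 ± 0.27, adjusted p = 1.38e-09, and 4.46 ± 0.29, adjusted p = 1.85e-11.

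Genes of the RB family differed from EV in several groups. Rb1 rose in TAZ4SA and YAP5SA (log2 fold changes 1.5 ± 0.17 and 1.44 ± 0.17), Rbl2 fell in both (-0.76 ± 0.10 and -1.27 ± 0.10) and in EVsub (-0.60 ± 0.10), and Rbl1 rose in EVsub (1.13 ± 0.26) and fell in YAP5SA (-1.23 ± 0.28). Rb1 was also DE higher in YAP-TFE3 (0.57 ± 0.17), though not in a fit of the groups compared alone or without EV replicate 1, EV replicate 3, YAP-TFE3 replicate 1 or YAP-TFE3 replicate 2. Rbl2 was also DE lower in TAZ-CAMTA1 (-0.32 ± 0.10), though not by library totals alone or without the filter on low counts, EV replicate 1, EV replicate 3, TAZ-CAMTA1 replicate 2 or TAZ-CAMTA1 replicate 3. Tfdp1, the DNA-binding partner of E2F proteins, fell in YAP5SA (-1.15 ± 0.18). Its changes in TAZ4SA (-0.49 ± 0.17) and EVsub (0.57 ± 0.17) were DE, but both were lost in a fit of the groups compared alone. They were also lost without 1 library, EV replicate 2, TAZ4SA replicate 1 or TAZ4SA replicate 2 in the first and EV replicate 1, EV replicate 3, EVsub replicate 1 or EVsub replicate 2 in the second. In all, 8 regulators were higher and 4 lower in TAZ4SA (52.2% of the 23, beside 57.5% of all genes), 8 and 8 in YAP5SA (69.6%, beside 71.2%), 9 and 1 in TAZ-CAMTA1 (43.5%, beside 21.5%), 10 and 2 in EVsub (52.2%, beside 22.1%) and 6 and 0 in YAP-TFE3 (26.1%, beside 15.3%). The shares in TAZ4SA and YAP5SA were thus close to those of all genes. The 4 lower in TAZ4SA became 2 without EV replicate 2, EV replicate 3, TAZ4SA replicate 1 or TAZ4SA replicate 3, and the 8 lower in YAP5SA became 5 without EV replicate 2. The 6 of YAP-TFE3 became 1 without YAP-TFE3 replicate 1 and 3 without EV replicate 3. The 12 of EVsub became 5 without EV replicate 1, EVsub replicate 1 or EVsub replicate 2 and 4 without EV replicate 3. By library totals alone 6 were higher and 13 lower in YAP5SA.

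Genes of mitosis, which follow S phase, were read beside them in the same libraries. Of 21 mitosis genes, 21 were higher in EVsub than in EV and 14 in TAZ-CAMTA1, with median log2 fold changes of 1.92 and 1.20, where 22.1% and 21.5% of all genes were DE. In TAZ4SA and YAP5SA 9 were higher in each and none lower (42.9% of the 21, below the 57.5% and 71.2% of all genes), with medians of 0.68 and 0.47, where the medians of the 45 replication genes were -0.06 and -0.19. These counts moved with single libraries, from 14 to 5 in TAZ-CAMTA1 without EV replicate 1 or 3, 9 without TAZ-CAMTA1 replicate 2 or 3 and 21 without EV replicate 2, and from 9 to 4 in TAZ4SA without EV replicate 1 or 3 and 14 without EV replicate 2. Without TAZ4SA replicate 3, 3 were higher and 3 lower. By library totals alone 6 were higher in TAZ4SA, and 5 higher and 3 lower in YAP5SA. Aurka, a kinase of the spindle poles, was among them (log2 fold changes 1.41 ± 0.35 and 1.69 ± 0.35), and so was Cdc20, which triggers anaphase (1.33 ± 0.32 and 1.75 ± 0.33). Whether the mitosis genes and the replication genes differ in their response was not tested. TAZ4SA replicate 3 held the highest level of 20 of the 21 mitosis genes in its group and YAP5SA replicate 3 of 21. In YAP-TFE3 none was DE by edgeR and none had an unadjusted p under 0.05, with a median of 0.35.

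Motif matches were found in promoters of genes that went either way in YAP5SA. Of the 8 genes higher than in EV, 6 had a window and 4 of these held a match (Cdt1, E2f7, Mcm7 and Pold1). Of the 12 lower genes, 10 had a window and 6 held a match (Cdc6, E2f2, Gins3, Mcm6, Pola1 and Uhrf1). Of the 25 genes that were not DE, 20 had a window and 6 held a match. Mcm6 and Mcm5, with 3 and 2 matches, had log2 fold changes of -1.12 ± 0.26 and -0.69 ± 0.35 in YAP5SA and 1.15 ± 0.26 and 1.86 ± 0.35 in EVsub. Pola1 and E2f7, with 1 match each, had -2.34 ± 0.41 and 1.63 ± 0.38 in YAP5SA. A match is a run of letters in this window and says nothing of whether a factor bound there.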

How the data were processed

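RNA-Seq counts of 24 NIH 3T3 libraries were used as deposited. Per the study's methods, the authors aligned reads with Hisat2 within bcbio-nextgen to mouse genome mm10 with an Ensembl annotation, after a TruSeq stranded library preparation, and deposited read counts per gene. Those methods also name Salmon and tximport, and which program made the deposited counts, and with which strand setting, is not given in the sources used here. Ensembl identifiers were named with GENCODE M21 (37693 of 39017 matched, and identifiers without a name held 0.221% of counts). Genes with a mean count of at least 5 were fitted together with edgeR 4.0.16 in R 4.3.3 (quasi-likelihood test, TMM, 1 mean per group), and p-values were adjusted by Benjamini-Hochberg over 14361 genes, with DE meaning an adjusted p under 0.05. CPM values use TMM library sizes, and CPM per kb divides them by merged exon length. Standard errors were the fold change over the square root of F. The script was tested on simulated counts.

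Groups and replicate numbers came from the sample titles. For YAP-TFE3 replicate 3 the description names another replicate. No libraries held the same counts (chi-square per degree of freedom between replicates 5.494 or more). The genes, gene lists and comparisons were chosen with earlier results of these data known. The rule for genes given with every library's value was a list by role, together with the largest rise and fall in a comparison, and genes of the other lists were picked after their values were seen. With 3 libraries per group at 16471181 counts or more, the median standard error of a log2 fold change was 0.25.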

Additional observations from a re-analysis of the deposited data

How the results depend on the processing

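No gene among the 45 changed direction while DE under any of the alternatives tried. Of the single gene results under them, 8067 stayed on their side of the threshold, 263 passed it anew and 400 dropped under it. With a size limit added, log2 fold changes of 1 or more in either direction, the number DE was 2 in TAZ4SA, 10 in TAZ-CAMTA1 and 23 in EVsub against EV, 19 in TAZ-CAMTA1 against TAZ4SA, 14 in YAP-TFE3 against YAP5SA, 2 in TAZ-CAMTA1 against YAP-TFE3, 4 in TAZ4SA against YAP5SA, and 25 in TAZ4SA and 1 in TAZ-CAMTA1 against EVsub, with 24.5%, 7.82%, 6.69%, 21%, 39%, 4.17%, 12.1%, 20.8% and 6.91% of all genes in that order. When a fit held no groups but those compared it was 6 in TAZ4SA, 29 in TAZ-CAMTA1, 3 in YAP-TFE3, 2 in TFE3 and 22 in EVsub against EV, 36 in TAZ-CAMTA1 against YAP-TFE3, 4 in TAZ4SA against YAP5SA and 2 in TAZ-CAMTA1 against EVsub, and the share of all genes DE was then 41.9%, 30.6%, 16.1%, 10.5%, 11.7%, 17.9%, 20.3% and 16.7% in that order. Without the filter on low counts it was 27 in TAZ-CAMTA1, 2 in YAP-TFE3 and 2 in TFE3 against EV, 28 in TAZ-CAMTA1 against YAP-TFE3, 11 in TAZ4SA against YAP5SA and 21 in TAZ-CAMTA1 against EVsub, with 12.7%, 9.81%, 2.6%, 7.99%, 23.7% and 12.9% of the larger number of genes then tested. TAZ-CAMTA1 against YAP-TFE3 gave 16 with DESeq2 (14.0% of all genes) and 5 by library totals alone (10.9%). The cause was not tested in any of these.

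Leaving out 1 library gave 7 to 13 DE genes in TAZ4SA, 7 to 23 in TAZ-CAMTA1, 16 to 21 in YAP5SA, 0 to 2 in YAP-TFE3, 0 to 2 in TFE3 and 27 to 42 in EVsub against EV, 0 in CAMTA1 against EVsub, 18 to 34 in TAZ-CAMTA1 against TAZ4SA, 20 to 24 in YAP-TFE3 against YAP5SA, 2 to 11 in TAZ-CAMTA1 against YAP-TFE3, 4 to 8 in TAZ4SA against YAP5SA, and 33 to 43 in TAZ4SA, 0 to 29 in TAZ-CAMTA1, 32 to 39 in YAP5SA and 29 to 42 in YAP-TFE3 against EVsub. The replicate numbers were not taken to pair the libraries. In no comparison did every same-numbered pair of libraries deviate together with a correlation over 0.1, a rule that cannot exclude pairing. In CAMTA1 against EVsub the same-numbered correlations were 0.252, -0.002 and 0.41, with a mean of 0.22 beside -0.111 for other pairs. With the number as a replicate block, the counts were 10 in TAZ4SA, 16 in TAZ-CAMTA1, 20 in YAP5SA, 0 in YAP-TFE3, 1 in TFE3 and 38 in EVsub against EV, and 0 in CAMTA1 against EVsub.

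Low counts limit E2f2 and Fen1, and with 3 libraries per group and a median standard error of 0.25, log2 fold changes well above that size, such as 0.35 to 0.63 in ring subunits in TAZ-CAMTA1, did not pass. The counting of strand limits genes that overlap a neighbour, among them Gins2, Rfc2, Rfc5, Mcm7 and Orc6 beside those named above.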
